A study of Homo sapiens with 6 samples.

Results

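Published targets of the microRNA miR-26a that act outside the cell cycle were followed in 3 Burkitt lymphoma cell lines that carried either a miR-26a construct (miR26a) or an empty one (empty). The list names 34 genes drawn from published work on miR-26a: kinases, chromatin proteins and transcription factors, secreted and matrix proteins, metabolic enzymes and a few RNA, transport and chaperone partners. A probe set annotated to a single gene was found for 32 of them, out of 19775 genes with such a probe set, and 27 of the 32 had a mean signal at or above a level minimum of 4.42 log2, which is the median over non-control probe sets of their mean level. Another 5 members lay below that minimum and were not tested, and HOXA9 and HOXA5 were not analysed here.

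The groups were miR26a in Namalwa, Raji and Ramos, and empty in the same lines, with 1 array for each line and group, so 6 arrays and 3 pairs in all. Namalwa, Raji and Ramos are established human lines of Burkitt lymphoma, a germinal centre B cell tumour driven by MYC. The labels list doxycycline at 0.5 µg/ml for 72 hours for every sample, empty controls included, as the agent that switches the construct on. They do not say which miR-26a hairpin was used, whether the transfected cells were clones or pools, or whether the arrays came from separate cultures, and p-values here cover no more than the spread among these arrays. The arrays used here do not report mature miR-26a, so its induction was not measured.

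MicroRNAs are short RNAs that guide an Argonaute protein to messenger RNAs, mostly through pairing between bases 2 to 8 of the microRNA, the seed, and sites in the 3′ untranslated region. A paired messenger RNA is often degraded, which an array can show, or translated less, which it cannot. The miR-26 family is known for low levels in MYC-driven lymphomas, and EZH2, a histone H3 lysine 27 methyltransferase, is among its best studied targets in them. The sequences below are shown because the seed is what a target would have to pair with. They are RefSeq mature sequences on GRCh38.p14, written 5′ to 3′ with the seed in capitals.
hsa-miR-26a-5p: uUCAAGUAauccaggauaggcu
hsa-miR-26b-5p: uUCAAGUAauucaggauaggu
hsa-miR-1297: uUCAAGUAauucaggug
hsa-miR-4465: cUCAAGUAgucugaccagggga
The miR-26a sequence is carried by 2 genes, MIR26A1 at chr3:37969413-37969434 on the plus strand and MIR26A2 at chr12:57824658-57824679 on the minus strand. Of 2370 mature names in the table, 4 had the seed UCAAGUA, which pairs with UACUUGA in a target. Counted from 1 at the 5′ end of miR-26a, miR-26b differed by C11U and C21U and was 1 base shorter (21 bases, against 22), so the family members differ outside the seed. Target untranslated regions were not searched for this site here.

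The arrays had similar overall levels, with medians of 4.36 to 4.44 log2. The empty arrays of Namalwa and Ramos stood apart in control probe sets. The 3′ minus 5′ signal of the ACTB control probe sets was 3.58 log2 on the Namalwa empty array and 1.80 to 1.98 on the other arrays, and that of GAPDH was 0.31 against 0.10 to 0.16. For 18S ribosomal RNA, the miR26a arrays and Raji empty gave a control signal between 7.49 and 7.72 log2, while Namalwa empty was lower at 6.68 and Ramos empty higher at 8.99. The 5 B cell markers with a single-gene probe set lay at 6.35 to 12.4 log2 on every array, and 3 germinal centre markers at 5.86 to 10.9. Below the level minimum on every array were 4 of 6 T and NK cell markers, 2 of 3 monocyte markers, 2 of 4 fibroblast markers and 3 of 4 epithelial markers. Of 2 red cell markers, 0 were below it on every array: HBB lay at 4.76 to 5.83 log2 and ALAS2 at 3.98 to 4.64.

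No member passed an adjusted p of 0.05 for miR26a minus empty, and neither did any other gene: limma with the line as a block called 0 of 12012 genes (0%). The smallest adjusted p was 0.073, shared by STRADB and LOXL2 among the members. Leaving out Raji, the same fit called 203 genes, 7 of them members, and leaving out Ramos it called 23 genes, 0 of them members; with an intensity trend and a robust prior variance it called 102 genes, 5 of them members. At an unadjusted p under 0.05, 9 of the 27 tested members (33.3%) were lower with miR26a, against 7.33% of all genes, and 0 were higher, against 5.56% of all genes. Lower values in all 3 lines were found for 12 members (44.4%), against 19.6% of all genes, and higher values in all 3 lines for 0 members, against 15.5%. A mean difference of -0.3 log2 or lower was found for 8 members (29.6%), against 4.85% of genes. The members were chosen with earlier results of these data known, so these shares are no independent check of the published targets. The median over the tested members was -0.18 log2, against -0.01 for all genes tested. It was -0.0733 with the mean of all probe sets of a gene at or above the level minimum. With no level minimum it was -0.11. The exact sign-flip permutation test over 3 pairs cannot give a two-sided p below 0.25, so it adds no call for any single member. In bulk RNA, fewer cells with a transcript and less transcript per cell cannot be told apart.

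**Figure D1:**
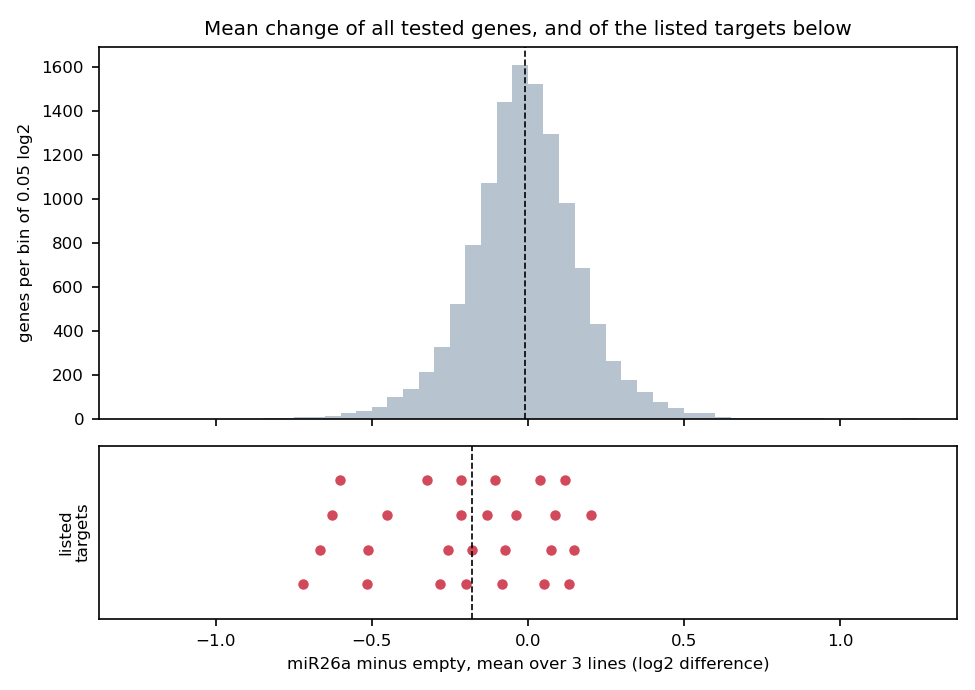
The top panel is a histogram of the mean miR26a minus empty difference (log2, x axis) of all 12012 tested genes in bins of 0.05, and the bottom panel shows the 27 tested members as points, staggered vertically for legibility only. Dashed lines mark the medians, -0.18 for the members and -0.01 for all genes; members run from -0.72 to 0.20.

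The 12 members that were lower in every line were CDK8, TAB3, STRADB, ULK1, PRKCD, HMGA1, LOXL2, ITGA5, PFKFB3, MTDH, KPNA2 and CHORDC1. Their mean differences ran from -0.72 to -0.07 log2. Among them, the difference was smallest in Raji for 11 and largest in Namalwa for 11. Over the 27 tested members, Namalwa had a median of -0.24, Raji of -0.04 and Ramos of -0.18, and 20, 19 and 18 members were lower in these lines. Since the Namalwa empty array was the one with the high 3′ to 5′ signal, the same counts were taken without Namalwa: 14 of 27 members were lower in both Raji and Ramos, against 30.3% of all genes, with a median of -0.16. Without Ramos, whose empty array had the high 18S signal, 13 of 27 were lower in both Namalwa and Raji, against 29.6% of all genes, with a median of -0.19. The part of these control signals in the single differences was not tested.

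**Figure D2:**
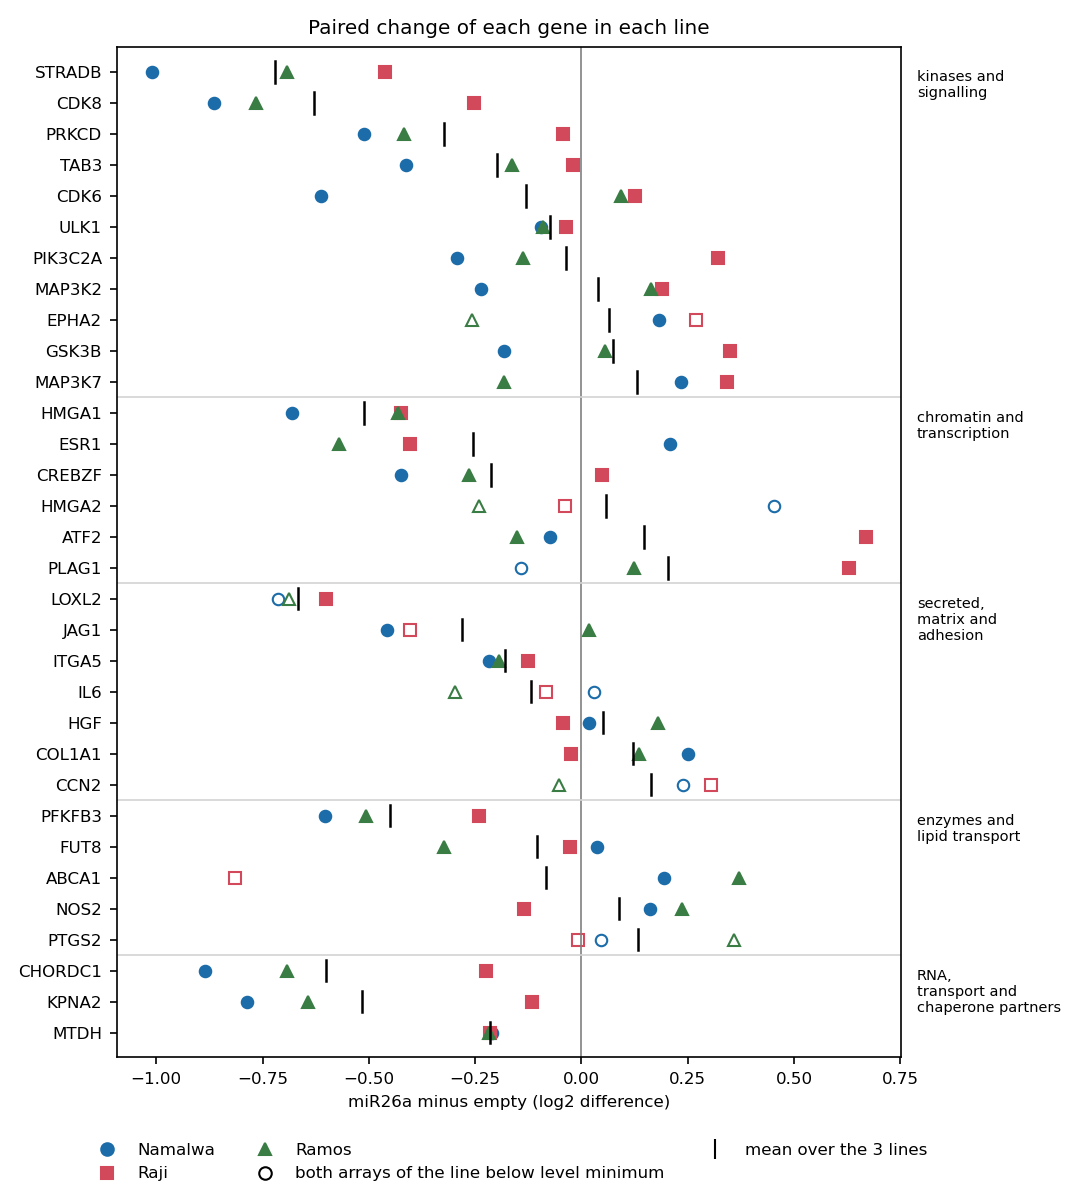
Each row is a gene, grouped by role, and the x axis is the miR26a minus empty difference (log2) in Namalwa (circle), Raji (square) and Ramos (triangle); open symbols mark lines with both arrays below the level minimum and vertical bars the mean over the 3 lines. The 12 members listed above have all 3 symbols left of 0, and the Raji symbol lies closest to 0 in 11 of them.

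The roles used from here on were assigned after the values were seen, so the counts per role are descriptive only. Over all genes, 19.6% were lower in every line and 7.33% were lower at an unadjusted limma p under 0.05. Of the 11 kinases and signalling proteins, 10 were tested, 5 were lower in every line and 3 had an unadjusted p under 0.05. STRADB is a pseudokinase that binds and activates the tumour suppressor kinase LKB1. Its level was 4.91, 7.18 and 4.96 log2 on the miR26a arrays of Namalwa, Raji and Ramos, against 5.92, 7.64 and 5.66 log2 on the empty arrays. Every pair was lower with miR26a, and the groups overlapped because Raji is higher than the other lines on both arrays. The mean difference was -0.72 ± 0.12 log2 (SE, n = 3 pairs), 1.65-fold lower, with a 95% interval of -0.997 to -0.45 and a limma adjusted p of 0.073. On the linear scale, 49.7% of the empty level remained in Namalwa, 72.6% in Raji and 61.9% in Ramos. The miR26a levels of Namalwa and Ramos lay near the level minimum. STRADB was read from its only single-gene probe set, so no other probe set could be compared.

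CDK8 is the kinase of the Mediator kinase module, which couples transcription factors to RNA polymerase II. Its level was 7.82, 7.49 and 8.08 log2 with miR26a in Namalwa, Raji and Ramos, against 8.68, 7.75 and 8.85 log2 with the empty construct. The difference was -0.63 ± 0.13 log2 (SE, n = 3 pairs; limma adjusted p = 0.106), and its size in Raji, -0.25, was less than in Namalwa, -0.86, and Ramos, -0.77. Both other CDK8 probe sets at the level minimum were also lower in all lines, with means of -0.67 and -0.44 log2. In the latter, the size in Raji, -0.47, was larger than in Namalwa, -0.26. CDK19, its close paralogue and alternative kinase of the module, was 0.49, 0.13 and 0.12 log2 higher with miR26a in Namalwa, Raji and Ramos. The mean was 0.25 (limma adjusted p = 0.402), or 0.0817 with the mean of all CDK19 probe sets at or above the level minimum. The difference between CDK8 and CDK19 was not tested. Of the 5 tested partners in the module, 0 had an unadjusted p under 0.05.

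PRKCD, protein kinase C delta, is a kinase that restrains B cell survival and promotes apoptosis. It lay at 5.77, 6.997 and 4.95 log2 on the miR26a arrays of Namalwa, Raji and Ramos, against 6.28, 7.04 and 5.36 log2 on the empty arrays. The Raji arrays differed by 0.04 log2, and the mean difference was -0.32 ± 0.12 log2 (SE, n = 3 pairs; limma adjusted p = 0.290). The remaining tested kinases differed by less. TAB3, an adaptor of the kinase TAK1, gave -0.20 log2 and ULK1, which starts autophagy, -0.07 log2, each lower in all lines, with limma adjusted p of 0.500 and 0.815. ULK1 lay near the level minimum, at 4.79 to 5.10 log2. CDK6, a G1 kinase that also acts on transcription, was at -0.61 log2 in Namalwa but at 0.12 and 0.09 in Raji and Ramos (limma adjusted p = 0.771). MAP3K7 (TAK1 itself), GSK3B and MAP3K2 had mean differences of 0.13, 0.07 and 0.04 log2, with limma adjusted p of 0.712, 0.848 and 0.928. EPHA2, an ephrin receptor, lay at 3.79 to 4.51 log2 and was below the level minimum on average.

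The LKB1, TAK1, ULK1 and MAP3K2 partners held 14 tested genes (4, 2, 3 and 5), of which 0 had an unadjusted p under 0.05. STRADA, the paralogue of STRADB in the LKB1 complex, differed by 0.00, 0.09 and -0.07 log2 in Namalwa, Raji and Ramos, a mean of 0.01 (limma adjusted p = 0.988). The difference between the paralogues was not tested.

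**Figure D3:**
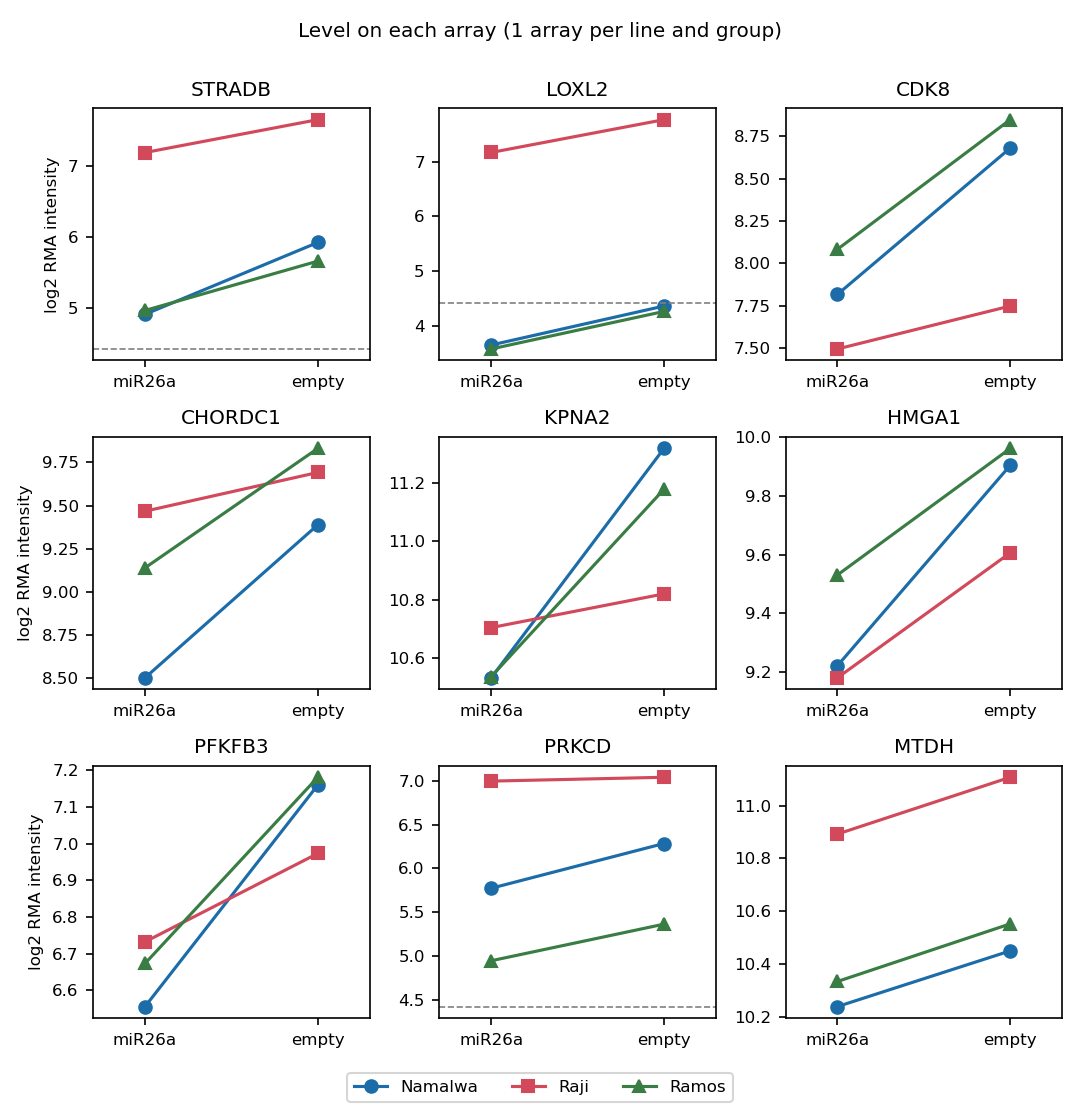
Each panel gives the log2 RMA intensity of 1 gene (y axis, which differs between panels) on the miR26a array (left) and the empty array (right) of each line, joined by a line; there is 1 array per point and no error bar. The dashed line is the level minimum of 4.42 log2 where the axis reaches it, and it shows the Namalwa and Ramos values of LOXL2 below the minimum in both groups.

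Of the 8 chromatin and transcription members, 5 were tested and 1 was lower in every line. HMGA1 is an AT-hook protein that bends DNA and opens chromatin, and it is abundant in proliferating and MYC-driven cells. Its level was 9.22, 9.18 and 9.53 log2 on the miR26a arrays of Namalwa, Raji and Ramos, against 9.90, 9.61 and 9.96 log2 on the empty arrays. Every miR26a array lay below every empty array, which held for 3 members (HMGA1, PFKFB3 and KPNA2) and 2.91% of all genes; the opposite held for 0 members and 1.61% of genes. The HMGA1 difference was -0.51 ± 0.11 log2 (SE, n = 3 pairs; 95% interval -0.75 to -0.27; limma adjusted p = 0.106). A second HMGA1 probe set gave 0.02 log2, and the mean of both -0.24 (limma adjusted p = 0.260). HMGA2, the related AT-hook protein of embryonic and tumour cells, was below the level minimum at 3.32 to 3.95 log2.

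ESR1, the oestrogen receptor alpha, lay at 5.12, 4.94 and 4.76 log2 with miR26a in Namalwa, Raji and Ramos, against 4.91, 5.35 and 5.33 log2 with the empty construct, so its sign differed between Namalwa and the other lines (limma adjusted p = 0.510). Another ESR1 probe set gave -0.34, -0.27 and 0.01 log2 in these lines, with Namalwa lower. CREBZF, a bZIP cofactor, averaged -0.21 log2, or -0.0812 with the mean of its probe sets at or above the level minimum. On the probe set used, it was 0.05 log2 higher in Raji. The zinc finger factor PLAG1 averaged 0.20 log2 and the bZIP factor ATF2 0.15 log2, with limma adjusted p of 0.601 and 0.752. On the probe sets used, Raji was highest in both, at 0.63 and 0.67 log2, and Namalwa was below 0. Another ATF2 probe set gave 0.98, 0.94 and -0.08 log2 in Namalwa, Raji and Ramos. The mean of the ATF2 probe sets at or above the level minimum was 0.38 (limma adjusted p = 0.325).

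Of the 7 secreted, matrix and adhesion members, 5 were tested and 2 were lower in every line. LOXL2 is a secreted lysyl oxidase that cross-links collagen. It lay at 3.65, 7.17 and 3.57 log2 on the miR26a arrays of Namalwa, Raji and Ramos, against 4.36, 7.77 and 4.26 log2 on the empty arrays. The pairs were close to each other, at -0.71, -0.60 and -0.69 log2, but the 4 Namalwa and Ramos arrays all had a level under the minimum. The mean was -0.67 ± 0.10 log2 (SE, n = 3 pairs; 95% interval -0.89 to -0.44; limma adjusted p = 0.073). The Raji pair, well above the minimum, retained 66.0% of the empty level. The LOXL2 probe sets did not run alike: the others at or above the minimum gave -0.20 and 0.16 log2, and the mean of all 3 gave -0.23 (limma adjusted p = 0.358).

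ITGA5, the alpha chain of the fibronectin receptor, was at -0.22, -0.13 and -0.19 log2 in Namalwa, Raji and Ramos, a mean of -0.18 (limma adjusted p = 0.494). JAG1, a Notch ligand, lay at 6.48, 3.22 and 7.62 log2 with miR26a in Namalwa, Raji and Ramos, against 6.94, 3.62 and 7.60 log2 with the empty construct. Its difference was -0.28 ± 0.12 log2 (SE, n = 3 pairs; limma adjusted p = 0.363), with Raji below the level minimum on this probe set and Ramos at 0.02. Its other probe sets at or above the minimum gave -0.08 and 0.35. The mean over these and the one used was -0.0055. HGF, the ligand of the MET receptor, averaged 0.05 log2 and COL1A1, a collagen chain, 0.12 log2, with limma adjusted p of 0.886 and 0.692. IL6 lay at 2.47 to 2.86 log2 and CCN2, a matrix-associated growth regulator, at 2.06 to 2.56, both below the minimum on every array. Among 7 tested ligand and receptor partners, IL6ST, the shared signal transducing subunit of the IL6 receptor family, was higher with miR26a in all lines. It lay at 6.004, 8.13 and 5.56 log2 on the miR26a arrays of Namalwa, Raji and Ramos, against 5.31, 7.65 and 5.005 log2 on the empty arrays, a difference of 0.58 ± 0.10 (SE, n = 3 pairs; limma adjusted p = 0.073).

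Of the 5 enzymes and lipid transporters, 4 were tested and 1 was lower in every line. PFKFB3 makes fructose 2,6-bisphosphate, which drives glycolysis. Its level was 6.56, 6.73 and 6.67 log2 with miR26a in Namalwa, Raji and Ramos, against 7.16, 6.97 and 7.18 log2 with the empty construct. The groups did not overlap, and the difference was -0.45 ± 0.11 log2 (SE, n = 3 pairs; 95% interval -0.70 to -0.20; limma adjusted p = 0.138). The related enzymes PFKFB2 and PFKFB4 differed by -0.05 and 0.02 log2.

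FUT8, which adds core fucose to glycans, lay at 6.56, 6.76 and 4.45 log2 with miR26a in Namalwa, Raji and Ramos, against 6.52, 6.79 and 4.77 log2 with the empty construct. Its mean was -0.10 log2 (limma adjusted p = 0.755) and its other probe set gave 0.25. ABCA1, which exports cholesterol, lay at 8.02, 2.96 and 8.56 log2 with miR26a in Namalwa, Raji and Ramos, against 7.82, 3.77 and 8.19 log2 with the empty construct. The mean was -0.08 log2 (limma adjusted p = 0.905); both Raji arrays were below the minimum, the other lines had higher values with miR26a, and without Raji the mean was 0.28. NOS2 averaged 0.09 log2 (limma adjusted p = 0.799), and PTGS2, the inducible prostaglandin synthase, was below the minimum at 2.12 to 2.48 log2.

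The 3 RNA, transport and chaperone members were all lower in every line, against 19.6% of all genes, but this mixed group was formed after the values were seen. CHORDC1 is a co-chaperone of HSP90. Its level was 8.50, 9.47 and 9.14 log2 on the miR26a arrays of Namalwa, Raji and Ramos, against 9.39, 9.69 and 9.83 log2 on the empty arrays. The difference was -0.60 ± 0.13 log2 (SE, n = 3 pairs; limma adjusted p = 0.119), and 54.1%, 85.6% and 61.9% of the empty level remained in these lines.

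KPNA2 is an importin alpha that carries proteins into the nucleus. It lay at 10.53, 10.70 and 10.54 log2 with miR26a in Namalwa, Raji and Ramos, against 11.32, 10.82 and 11.18 log2 with the empty construct. The groups did not overlap and the miR26a arrays were nearly level with each other, with a mean of 10.59 ± 0.10 log2 for miR26a and 11.11 ± 0.26 for empty (SD, n = 3 each). The difference was -0.51 ± 0.14 (SE, n = 3 pairs; limma adjusted p = 0.152), and a second KPNA2 probe set gave -0.54. Of 5 tested importin partners, KPNA4 was lower in all lines at -0.30 log2 (limma adjusted p = 0.262).

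MTDH, an endoplasmic reticulum and nuclear protein linked to tumour growth, lay at 10.24, 10.89 and 10.33 log2 with miR26a in Namalwa, Raji and Ramos, against 10.45, 11.11 and 10.55 log2 with the empty construct. On the probe set used, its pairs were the most alike of the members described here on every array, at -0.21, -0.22 and -0.22 log2. All 4 other MTDH probe sets also had a mean below 0, at -0.24 to -0.14, but their pairs were less even, with Raji closest to 0 in each. The least even gave -0.51, 0.14 and -0.34 log2 in Namalwa, Raji and Ramos, so it was higher with miR26a in Raji. With the variance limma shares across genes, the MTDH difference of -0.21 ± 0.10 log2 (SE, n = 3 pairs) had an unadjusted p of 0.0560 and an adjusted p of 0.406.

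**Figure D4:**
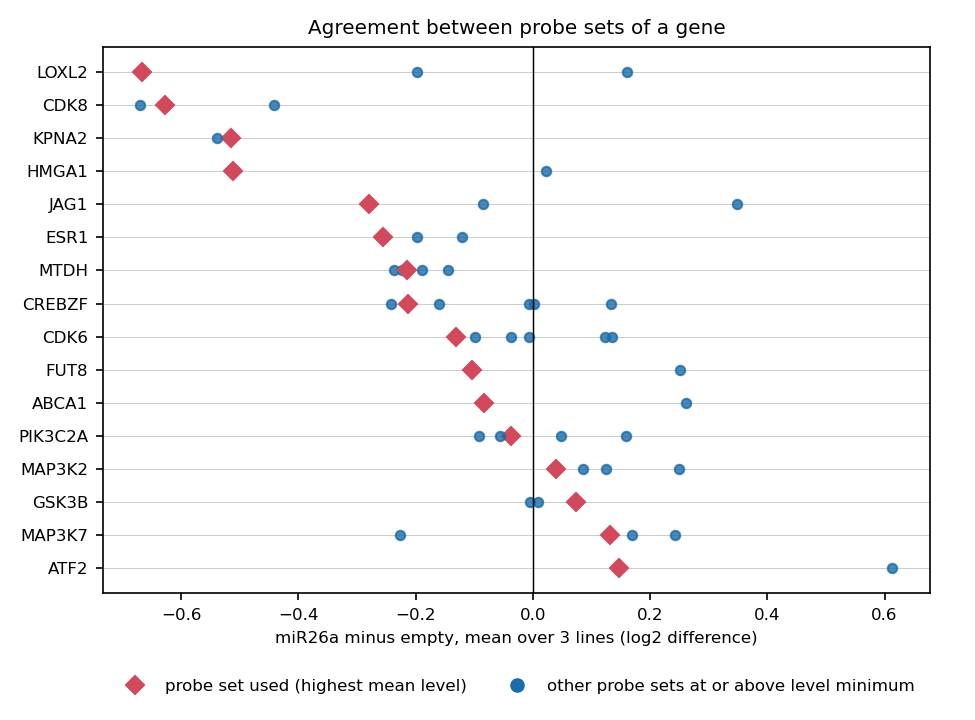
Each row is a tested member with more than 1 probe set at or above the level minimum, and the x axis is the mean miR26a minus empty difference (log2); diamonds are the probe set used for the gene and circles the others. All other probe sets had the same sign as the one used in 6 of 16 members, CDK8, KPNA2 and MTDH among them, and at least 1 had the opposite sign in 10, HMGA1 and LOXL2 among them.

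For scale, 13 other published miR-26a targets were tested, most of them cell cycle or DNA demethylation genes. Of these, 8 had an unadjusted limma p under 0.05 and were lower, against 7.33% of all genes. Lower values in all lines were found for 8 (61.5%), against 19.6% of all genes, and the median was -0.30 log2. This list was also assembled with earlier results of these arrays known. EZH2, the gene of the study's title, gave -0.76, -0.31 and -0.61 log2 in Namalwa, Raji and Ramos, a mean of -0.56 ± 0.12 (SE, n = 3 pairs; limma adjusted p = 0.106), so its difference too was smallest in Raji. SLC7A11, a cystine transporter, gave -0.74, CDC6 -0.73 and CCNE2 -0.65 log2, each with a limma adjusted p of 0.073. With the mean of its probe sets at or above the level minimum, SLC7A11 was at -0.36 (limma adjusted p = 0.161). Across all 51 tested partner genes, these 13 included, the median was -0.04 log2. In all lines, 12 of the 51 (23.5%) were lower, near the 19.6% of all genes, and 8 of the 12 were on the list above. Higher in all lines were 4 of the 51, against 15.5% of all genes.

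The members also differed between the lines. Between at least 1 pair of lines, 19 of the 27 tested members (70.4%) passed a limma adjusted p of 0.05, against 60.9% of all genes, and 8 (29.6%) did so by at least 1 log2, against 19.2%. The other 8 passed in no pair. Raji was higher than Namalwa for 8 members (29.6%) and lower for 6 (22.2%), against 22.8% and 23.4% of all genes. Raji was higher than Ramos for 10 members (37.0%) and lower for 7 (25.9%), against 26.1% and 24.4% of genes. Namalwa was higher than Ramos for 3 members (11.1%) and lower for 2 (7.41%), against 8.09% and 6.57% of genes.

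STRADB, PRKCD and, on the probe set used, LOXL2 were high in Raji. STRADB averaged 7.41 log2 in Raji, with 5.41 for Namalwa and 5.31 for Ramos, and both Raji arrays lay above all others (Raji minus Namalwa 2.00 ± 0.15, SE, limma adjusted p = 4.73e-06; Raji minus Ramos 2.10, limma adjusted p = 2.90e-06). LOXL2 averaged 7.47 log2 in Raji, with 4.002 for Namalwa and 3.92 for Ramos, both under the level minimum, so that Raji was higher by at least 3.05 log2, measured from the minimum (limma adjusted p = 2.25e-08 and 1.89e-08). This rests on 1 probe set: another LOXL2 probe set lay at 4.52 and 4.56 log2 in Raji, with 4.44 on both arrays of Namalwa and 4.24 and 4.79 for Ramos, so the lines were close there. PRKCD averaged 7.02 log2 in Raji, with 6.03 for Namalwa and 5.15 for Ramos, and all 3 pairs of lines passed, the closest being Namalwa minus Ramos at 0.87 log2 (limma adjusted p = 0.00380). PLAG1 lay at 6.41, 4.07 and 5.41 log2 on the miR26a arrays of Raji, Namalwa and Ramos and at 5.78, 4.21 and 5.29 on their empty arrays, so Raji was high, Ramos between and Namalwa below the minimum, with all 3 pairs past the test (limma adjusted p from 1.56e-05 to 0.00588). PIK3C2A, a class II phosphoinositide kinase, lay at 8.71, 7.79 and 7.15 log2 on the miR26a arrays of Raji, Namalwa and Ramos and at 8.39, 8.08 and 7.29 on their empty arrays. Its order was Raji, then Namalwa, then Ramos, and neighbouring lines differed by 0.62 and 0.72 log2 (limma adjusted p = 0.0102 and 0.0157).

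ABCA1 and JAG1 were below the level minimum in Raji on the probe sets used, so their differences are given as bounds from that minimum. ABCA1 averaged 3.37 log2 in Raji, with 7.92 for Namalwa and 8.37 for Ramos, and Raji was lower by at least 3.50 log2 than Namalwa and 3.95 than Ramos (limma adjusted p = 3.73e-07 and 1.76e-07). Its other probe set with signal ran alike, at 2.41 and 2.48 log2 in Raji. JAG1 averaged 3.42 log2 in Raji, with 6.71 for Namalwa and 7.61 for Ramos, and Raji was lower by at least 2.29 and 3.18 log2 (limma adjusted p = 1.16e-07 and 2.13e-08). A second JAG1 probe set was also low in Raji, at 3.60 on both arrays, but another lay at 4.58 and 5.12 log2 in Raji, with 4.64 and 4.87 for Namalwa and 4.46 and 4.74 for Ramos, so it shows no such gap. Namalwa and Ramos also differed in JAG1 by -0.90 log2 (limma adjusted p = 0.00364), but not past the threshold in ABCA1. FUT8 averaged 6.77 log2 in Raji and 6.54 in Namalwa, against 4.61 in Ramos, so Ramos was the low line (limma adjusted p = 1.13e-06 and 3.43e-05). Ramos lay near the level minimum there. On the other FUT8 probe set the gap was smaller, with Ramos at 4.66 (miR26a) and 4.42 log2 (empty) and the other lines at 5.34 to 5.86. Raji and Namalwa did not differ in FUT8 past the threshold.

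**Figure D5:**
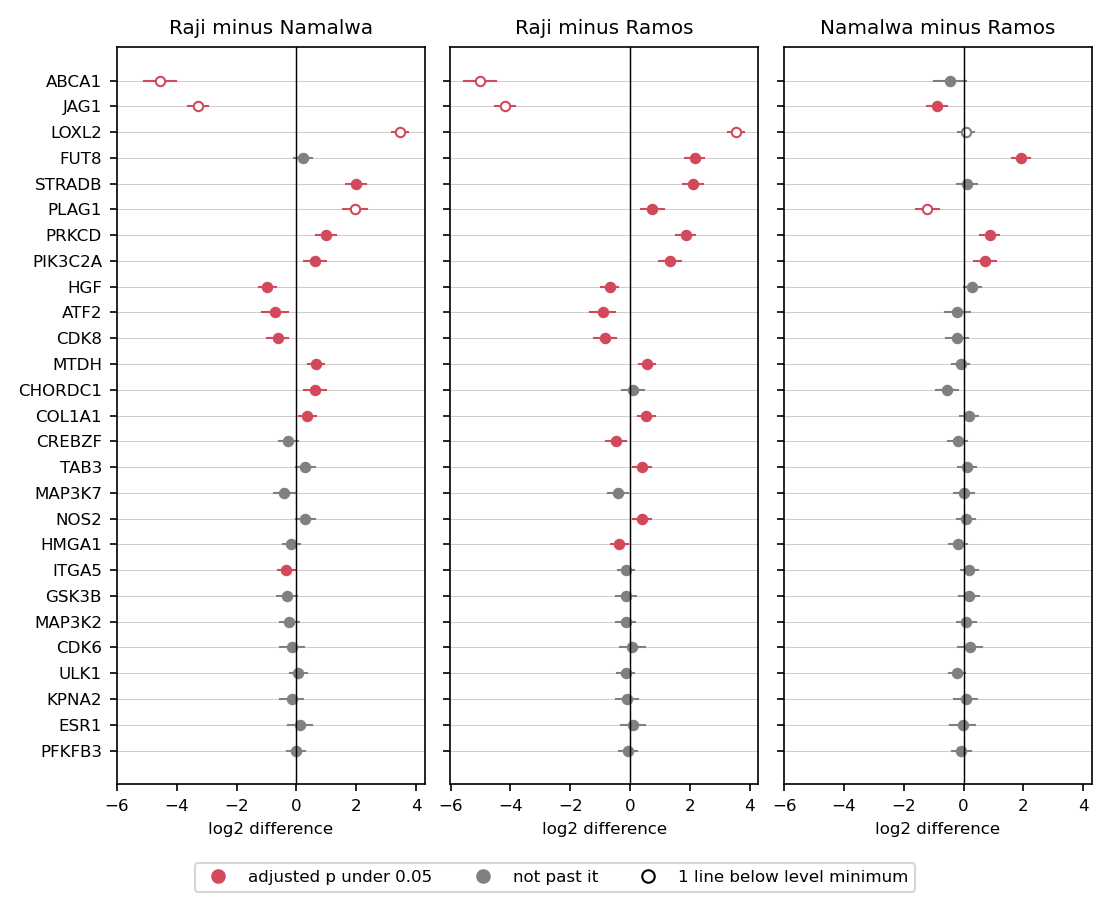
Each row is a tested member and each panel a pair of lines; points are log2 differences with 95% intervals from limma over 6 arrays, red where the adjusted p is under 0.05, and open where 1 of the lines lies below the level minimum. STRADB lies at 2.00 and 2.10 in the Raji comparisons, open points such as ABCA1 and LOXL2 rest on a level under the minimum and have no exact size, and PFKFB3, KPNA2 and CDK6 lie near 0 in all 3 panels.

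Other members differed between lines by under 1 log2. CDK8 was lower in Raji by 0.63 log2 against Namalwa and 0.85 against Ramos, and ATF2 by 0.71 and 0.92, while HGF was lower by 0.97 and 0.67. MTDH was higher in Raji by 0.66 log2 against Namalwa and 0.56 against Ramos, and CHORDC1 was 0.63 higher in Raji than in Namalwa. For 9 members, the gap between the miR26a and the empty array of 1 line was larger than the whole range of line means, PFKFB3, KPNA2, HMGA1, CDK8 and CHORDC1 among them. The COL1A1 probe sets disagreed between lines: the one used lay at 6.53 to 7.15 log2 everywhere, while another was at 6.45 and 6.68 in Raji only and at 2.00 to 2.66 elsewhere, so its level in a line depends on the probe set.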

How the data were processed

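RNA from 6 cell line samples was measured on Affymetrix Human Genome U133 Plus 2.0 arrays. The deposited table holds log2 intensities of 54675 probe sets, summarised by the authors with RMA, and GCOS is also named, per the submitters' processing notes; versions are not given in the sources used here. RMA gives all arrays a like distribution, so a shift of all genes would not be seen. The platform annotation paired 41091 probe sets with 1 gene symbol, 1801 with several and 11721 with none, and symbols were updated through Entrez identifiers; only probe sets with 1 symbol were named. Each gene was read from 1 probe set, that of highest average level, and 12012 genes at or above the level minimum were tested. limma 3.58.1 in R 4.3.3 fitted miR26a minus empty with the line as a block, and line differences with the group as a covariate, with Benjamini-Hochberg adjustment over all genes tested. The fits were tested on simulated data. The line pairs the arrays, since each line gave 1 array of each group; deviations correlated within lines at 0.861, 0.950 and 0.917. The members and lists were chosen with earlier results of these data known. Values on every array are given for members with a mean difference of at least 0.3 log2, or the same sign in all lines and at least 0.2, or a line difference of at least 1 log2 past the adjusted p of 0.05. ESR1 was added after its values were seen, and so were the roles, the partner genes with a mean difference of at least 0.2 log2 (IL6ST, CDK19, KPNA4 and others), STRADA, PFKFB2 and PFKFB4. Alternatives changed the block, the level minimum, the scaling, the probe set rule, the prior variance and the arrays included. The number of arrays limits the precision.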

Additional observations from a re-analysis of the deposited data

Results flagged for a closer look

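In 3 of the 27 tested members the miR26a minus empty differences had opposite signs between lines, with at least 0.2 log2 on each side. This size was chosen after the values were seen. The share of all genes that meet it is not given here, so 3 of 27 cannot be called unusual. PIK3C2A gave -0.29 log2 in Namalwa, 0.32 in Raji and -0.14 in Ramos, but none of its 4 other probe sets at or above the minimum reached 0.2 on both sides. ESR1 gave 0.21 log2 in Namalwa, -0.40 in Raji and -0.57 in Ramos, but another of its probe sets gave -0.34, -0.27 and 0.01 in the same lines, with the Namalwa sign turned. ABCA1 gave -0.81 log2 in Raji, 0.20 in Namalwa and 0.37 in Ramos; its Raji level was under the minimum in both groups, and its other probe set with signal gave 0.07, 0.49 and 0.22, with no opposite sign. Among the untested members below the minimum, HMGA2 (0.45 in Namalwa, -0.24 in Ramos) and EPHA2 (0.27 in Raji, -0.26 in Ramos) also had both signs at this size. With 1 pair of arrays per line, the differences between lines were not tested.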

How the results depend on the processing

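No gene was called with or without the replicate block, but the count moved under other settings: 50 genes with a stricter level minimum (the 75th percentile), 102 with a robust prior that follows intensity, and 0 to 203 when 1 line was left out (203 without Raji, 23 without Ramos, 0 without Namalwa). Of the members, 5 were called with that prior (LOXL2, STRADB, HMGA1, CDK8 and CHORDC1, adjusted p 0.0330 to 0.0485) and 0 to 7 with 1 line left out; without Raji these were CDK8, STRADB, CHORDC1, KPNA2, LOXL2, PFKFB3 and HMGA1, adjusted p 0.00921 to 0.0480. With 1 line left out, the fit has fewer arrays and the cause of the added calls was not tested. The 12 members lower in every line became 7 with the stricter minimum and 8 with shared-suffix probe sets left out. Both settings test fewer members, so these counts do not show that a member lost its direction. With shared-suffix probe sets left out, HMGA1, LOXL2, PFKFB3 and CHORDC1 were no longer tested. The members' median became -0.0733 with the mean of all probe sets at or above the level minimum, and -0.11 with no level minimum. Of 275 member values under the alternatives, 249 kept their direction and side of the threshold, 12 passed it in the same direction, and 14 changed sign. With the mean of probe sets at or above the level minimum, PIK3C2A became 0.0046, FUT8 0.0730, ABCA1 0.0888 and STRADA -0.0852 log2. With a second quantile normalisation STRADA became -0.0014. With 1 line left out, the signs of some small differences turned, with ranges of -0.26 to 0.11 for CDK6, -0.22 to 0.0914 for PIK3C2A (0.0140 without Ramos), -0.0631 to 0.20 for GSK3B, -0.0362 to 0.18 for MAP3K2 (-0.0238 without Ramos), -0.0095 to 0.38 for PLAG1, -0.11 to 0.30 for ATF2, -0.31 to 0.28 for ABCA1, -0.0133 to 0.0985 for HGF, -0.17 to 0.0043 for FUT8 and -0.0334 to 0.0443 for STRADA. Between lines, all 14 differences of at least 1 log2 kept their direction and call in 179 values under alternatives. Sizes moved with the mean of probe sets at or above the level minimum: LOXL2 to 1.32 (Raji minus Namalwa) and 1.26 (Raji minus Ramos), and JAG1 to -1.86 and -2.56. The counts of called members moved to 4 higher for Raji minus Namalwa, 4 higher for Raji minus Ramos, and 1 higher and 1 lower for Namalwa minus Ramos with the stricter minimum. With shared-suffix probe sets left out, they moved to 5 higher and 3 lower for Raji minus Namalwa, 6 higher and 3 lower for Raji minus Ramos, and 1 lower for Namalwa minus Ramos. Fewer members were tested with the stricter minimum and with shared-suffix probe sets left out. With 1 array left out, the counts of called members also moved for Raji minus Namalwa and for Namalwa minus Ramos. Such a fit leaves 1 array in a line, so its counts are not given.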
